A study of Trametes elegans with 15 samples.

Results

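The genes described here are 61 of the 949 genes that the authors listed for *Trametes elegans* strain BRFM 1663, whose samples are titled *Artolenzites elegans*, and they are the genes whose level separated wood or other plant material from sugar and pure cellulose. They were chosen from the measured values. For each gene the 5 deposited levels, 1 per growth medium, were put in order and the largest gap between neighbours was found. A gene was kept where that gap was at least 1 on the log2 scale (a ratio of at least 2), with maltose and cellulose both below the gap and pine, aspen or both above it, whichever side wheat straw fell on. All 5 media thus entered the choice, so the levels of these 61 genes are given as a description and carry no test.

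Mycelium was grown for 3 days at 30 °C in liquid medium shaken at 120 rpm. The maltose medium, the sugar control, held 20 g/l maltose. The cellulose medium held 15 g/l Avicel, a microcrystalline cellulose, and the straw and pine media held 15 g/l of fragments under 2 mm, each beside 2.5 g/l maltose. The aspen medium held 15 g/l of 1 mm fragments with maltose, in an amount that the label does not give readably. The cellulose, straw and pine media thus shared their maltose, while the maltose control differed from them in the amount of sugar as well as in the absence of a solid. The labels list 15 samples, 3 per medium, and do not say whether they were separate cultures, so the spread between them may be technical. Each medium has 1 deposited value per gene, the mean of log2(normalised reads + 1). The whole reads behind these means could be recovered for 3 libraries on maltose, cellulose, pine and aspen and for 2 on straw, so 1 of the straw samples is not analysed here. Libraries are called a, b and c within a medium, and a letter shared by 2 media does not pair them. Over the 767 genes recovered in all 14 libraries, a library held between 383517 and 1075636 reads. Below, a level is this log2 value and each ± is the SD over libraries; where the reads of a high value could not be recovered, the deposited mean stands alone.

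White-rot fungi of the order Polyporales degrade all the polymers of wood, using hydrolases and lytic polysaccharide monooxygenases on cellulose and hemicellulose and peroxidases, laccases and peroxide-producing oxidases on lignin. Pine, a softwood, has lignin built mainly of guaiacyl units and a hemicellulose rich in galactoglucomannan. Aspen, a hardwood, has lignin of guaiacyl and syringyl units and a hemicellulose rich in glucuronoxylan, while wheat straw is a grass tissue rich in arabinoxylan. The deposited table gives gene numbers without names or functions, so which of these enzymes the 61 genes encode is not given here, and the genes are described by number, level and pattern.

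The 61 genes fell into 6 sets by the media above the gap. Pine alone was above it for 18 genes, aspen alone for 12, and pine and aspen without straw for 5. Straw and aspen were above it without pine for 12 genes, straw and pine without aspen for 1, and straw, pine and aspen together for 13, which are called the all-plant genes below. The gap had a median of 1.61 and ran from 1.01 to 4.70, and it was at least 2 for 17 genes. The range over the 5 media had a median of 2.99 for the 61 genes and of 1.69 for all 949 genes. The rule makes each of the 61 ranges at least 1, so nothing is read from this difference. A largest gap of at least 1 was found for 403 genes in all, of which 342 had another arrangement of media. A further 134 genes had the same arrangement of media with a smaller gap.

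**Figure D1:**
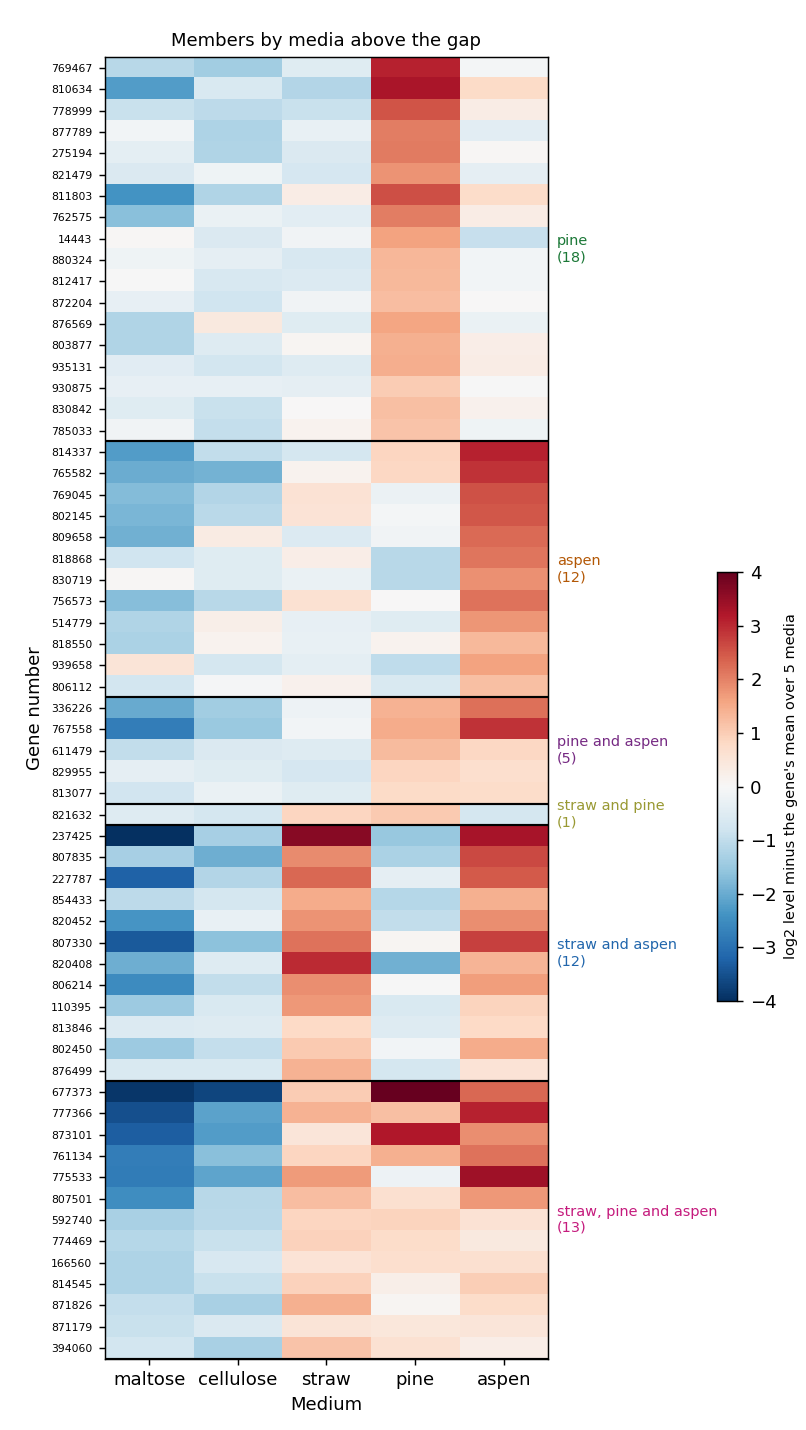
Level of each of the 61 genes (rows, grouped by the media above the gap) on the 5 media (columns), as the log2 difference from the gene's own mean over the media. The block of 18 genes above the gap on pine alone and the block of 12 above it on straw and aspen differ in where the high values lie.

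The libraries lay on either side of the gap for nearly every gene that could be examined. Of the 48 genes recovered in all 14 libraries, 47 had every library of the upper media above every library of the lower media, and gene 939658 did not. Among all 767 genes recovered in all libraries, 85.4% had no overlap of libraries at their own largest gap, and among the 308 of these with a gap of at least 1 it was 99%, so the count for the 61 genes is near that of any gene chosen by such a gap. The median SD over libraries was 0.14 on aspen (50 of the 61 genes recovered), 0.16 on pine (52), 0.19 on cellulose (57), 0.20 on maltose (56) and 0.20 on straw (61). Over all genes it was 0.12 on straw, 0.17 on cellulose and 0.16 on the other 3 media.

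The summed level of the 61 genes was concentrated on the 2 woods. They held 3.27% of the normalised reads of the listed genes on maltose, 3.10% on cellulose and 5.14% on straw, against 17.6% on pine and 12.3% on aspen. Gene 873101 alone made up 6.14% on pine and 2.62% on aspen, and without it the other 60 genes held 11.5% and 9.72%. The 18 pine-only genes accounted for 9.17% on pine and for 3.32% on aspen. Most of both shares came from genes 876569, 812417 and 935131, which ranked 2, 3 and 8 of all genes on pine. The summed shares thus rest largely on a few abundant genes and do not describe the typical member. The median level of the 61 genes was 7.30 on maltose and 7.96 on cellulose, below the medians of all genes of 8.10 and 8.86. On straw the medians were 9.17 and 9.21, on pine 9.31 and 8.11, and on aspen 10.16 and 8.91. These samples are of whole mycelium, so more RNA per cell and more cells that express a gene cannot be told apart.

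**Figure D2:**
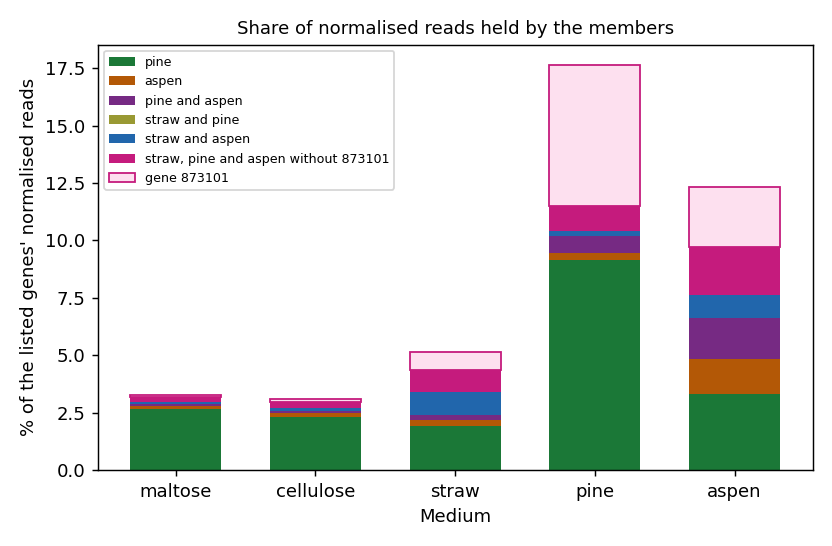
Share of the normalised reads of all 949 listed genes held by the 61 genes on each medium, in percent, stacked by the media above the gap, with the part of gene 873101 drawn separately. The bars reach 17.6% on pine and 12.3% on aspen and stay between 3.10% and 5.14% on the other media.

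The largest gaps belonged to genes above it on all plant media or on straw and aspen. Gene 677373, an all-plant gene, had the largest, 4.70. It was at 3.73, 3.83 and 3.09 in the maltose libraries (mean 3.55 ± 0.40), a level reached with 8 to 15 reads per library. On straw its 2 libraries were at 8.43 and 8.50, on aspen its 3 were at 9.58, 9.76 and 9.89, and on pine they were at 11.93, 11.75 and 11.53. Its level on pine was thus 291 times that on maltose and 3.97 times that on aspen, both as ratios on the scale of normalised reads + 1, which is used for every ratio here. The cellulose libraries of gene 677373 were uneven, at 4.70, 4.51 and 2.09 with 24, 21 and 3 reads, and its gap was 3.86 without the low one.

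Gene 873101, also an all-plant gene, had the highest level of all 949 genes on pine and the second highest on aspen. It was at 10.79, 10.77 and 10.76 in the maltose libraries and at 12.10, 12.06 and 11.31 in the cellulose libraries. The straw libraries read 14.33 and 14.79, and the deposited means were 15.93 on aspen and 17.27 on pine. Among the 949 genes it ranked 209 on maltose, 179 on cellulose, 20 on straw, 2 on aspen and 1 on pine, so that its place moved with its level. The pine level was 43.6 times the cellulose level and 2.53 times the aspen level.

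The other all-plant genes differed in which plant medium was highest. Of the 13, straw was highest for 4, pine for 4 and aspen for 5. Gene 777366 had a mean of 7.31 ± 0.44 on maltose (n = 3), 12.20 ± 0.05 on straw (n = 2), 12.03 on pine and 13.89 on aspen. Its cellulose libraries were at 9.30, 9.30 and 7.42, and its gap of 3.36 was 2.73 without the low one. Gene 775533 was also highest on aspen, at 13.47, and its straw libraries, at 11.94 and 11.62, lay above its pine libraries, at 9.87, 9.94 and 9.85. Gene 761134 showed a smaller spread among the plant media, with 10.40 ± 0.12 on straw (n = 2), 10.95 ± 0.04 on pine (n = 3) and 11.70 ± 0.10 on aspen (n = 3), against 7.87 ± 0.05 on cellulose (n = 3) and 6.78 ± 0.20 on maltose (n = 3).

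**Figure D3:**
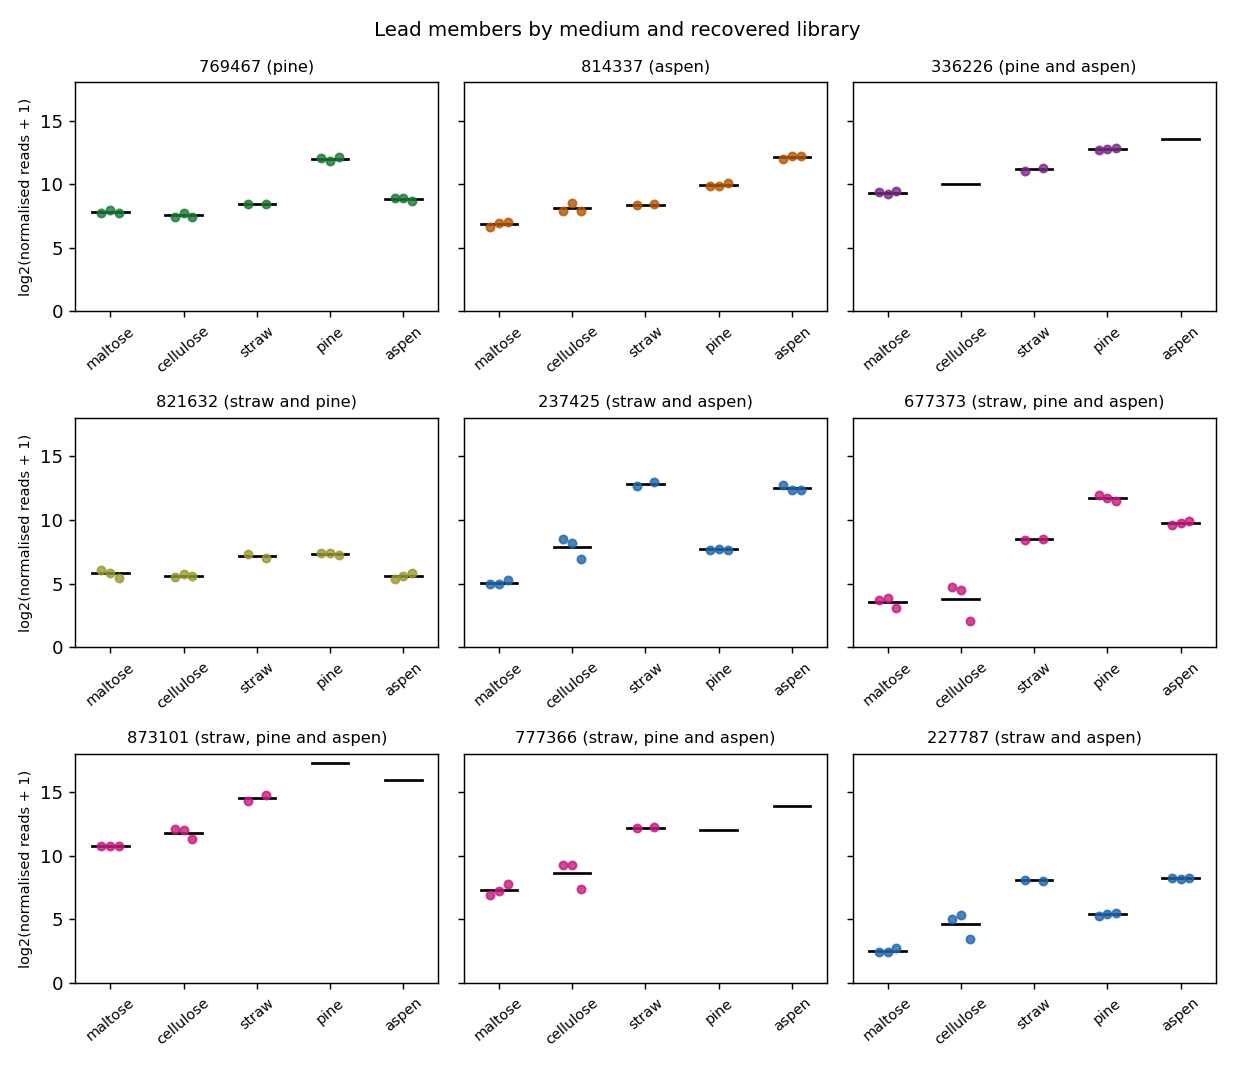
Levels (log2 of normalised reads + 1) of the genes with the largest gaps on the 5 media. Points are recovered libraries and bars the deposited means; gene 677373 goes from 3.55 on maltose to 11.74 on pine, and gene 237425 is at 12.84 on straw and 12.49 on aspen but at 7.70 on pine.

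The 12 genes above the gap on straw and aspen had pine below it, where pine lay a median of 1.09 above maltose and 0.02 above cellulose. Pine exceeded maltose by at least 1 for 6 of the 12, against 20.1% of all genes. It exceeded cellulose by at least 1 for 1, against 13.5% of all genes. The rule placed pine below the gap here, so nothing is read from these counts. Gene 237425 had the second largest gap of the 61 genes, 4.61. Its maltose libraries were at 4.95, 4.99 and 5.31. Its straw libraries were at 12.67 and 13.02 and its aspen libraries at 12.73, 12.34 and 12.39, so straw and aspen overlapped. The pine libraries lay far below both, at 7.67, 7.75 and 7.66, within the range of the cellulose libraries, at 8.47, 8.23 and 6.93. Straw stood 217 times above maltose and 35.4 times above pine. Without the lowest cellulose library the gap of gene 237425 was 4.14.

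Gene 227787 was also highest on aspen and straw, at a lower level, with pine above cellulose. It was at 2.53 ± 0.17 on maltose (n = 3), 5.40 ± 0.10 on pine (n = 3), 8.08 ± 0.05 on straw (n = 2) and 8.24 ± 0.05 on aspen (n = 3). Its cellulose libraries, at 5.05, 5.38 and 3.43, had 31, 39 and 9 reads. Gene 854433 stood lowest on pine, at 6.31 ± 0.18 (n = 3), with 6.42 ± 0.21 on maltose (n = 3), 8.94 on straw and 8.89 ± 0.05 on aspen (n = 3). Gene 820452 was intermediate on cellulose, with 8.69 ± 0.30 (n = 3) against 6.63 ± 0.27 on maltose (n = 3), and reached 10.80 ± 0.12 on straw (n = 2) and 10.84 ± 0.10 on aspen (n = 3). Gene 807835 rested on few reads, with 1 to 7 per library on maltose, cellulose and pine, 42 and 40 on straw and 59, 77 and 95 on aspen.

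Straw was the highest medium for 7 of the 12 straw-and-aspen genes and aspen for 5. Only gene 821632 had the opposite arrangement, with straw and pine above the gap and aspen below it. Its libraries were at 7.36 and 6.99 on straw and at 7.39, 7.40 and 7.26 on pine, and the means on aspen, cellulose and maltose were 5.59 ± 0.21, 5.60 ± 0.14 and 5.80 ± 0.32 (n = 3 each).

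The 18 pine-only genes included some of the highest levels in the table. Gene 876569 was at 16.22 on pine, rank 2 of 949, and at 15.02 on cellulose, 14.36 on aspen, 14.15 on straw and 13.43 on maltose. Gene 812417 was at 16.20 on pine, rank 3, and between 14.24 and 14.88 on the other 4 media. Gene 935131 was at 15.46 on pine, rank 8, and between 13.29 and 14.31 elsewhere. These 3 genes were abundant on every medium and stood higher still on pine.

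The largest gap among the pine-only genes was that of gene 769467, 3.16. Its pine libraries were at 12.05, 11.78 and 12.14, and its aspen libraries at 8.94, 8.89 and 8.66. On straw it was at 8.46 and 8.43, on maltose at 7.74, 7.97 and 7.74 and on cellulose at 7.46, 7.71 and 7.44 and no library outside pine was above 8.94. Pine stood 21.9 times above cellulose and 8.93 times above aspen. Gene 810634 was at 12.15, 12.30 and 11.70 in the pine libraries, with a mean of 9.55 ± 0.11 on aspen, 8.17 ± 0.20 on cellulose and 6.56 ± 0.04 on maltose (n = 3 each). Aspen was thus its second highest medium, clear of cellulose by more than the spread of the libraries.

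Gene 778999 had 10.84 ± 0.51 on pine against 7.31 ± 0.07 on cellulose and 7.46 ± 0.21 on maltose (n = 3 each). Genes 275194 and 877789 reached 10.29 ± 0.26 and 9.97 ± 0.09 on pine, and both were lower on cellulose (7.01 ± 0.12 and 6.70 ± 0.16) than on maltose (7.83 ± 0.27 and 7.82 ± 0.09; n = 3 each). By the deposited levels, aspen was the second highest medium for 12 of the 18 pine-only genes, maltose for 3, cellulose for 2 and straw for 1. Setting the medians of the media equal would raise maltose by 0.53 and lower aspen by 0.27. Aspen exceeded maltose by a median of 0.56 over the 18 genes, about the size of the rise of maltose alone. The order of aspen and maltose thus depends on the scaling, and nothing is read from it. The other orders of media given here were not examined on that scale. As deposited, aspen exceeded the higher of maltose and cellulose by a median of 0.40, less than that rise of maltose, and by at least 1 in 4 of the 18. Straw lay a median of 0.11 below the higher of the 2 (difference -0.11). Aspen was at least 1 above maltose for 6 of the 18, against 29.5% of all genes. It was at least 1 above cellulose for 7, against 15.0%. The rule placed these media below the gap, so nothing is read from these counts.

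The pine libraries themselves differed for these genes. Library c stood below the mean of libraries a and b for 11 of the 13 pine-only genes recovered on pine, against 55.2% of the 854 genes recovered there. The median difference was -0.43 for the 13 genes and -0.04 over the 854. Library c was lower by at least 0.5, a limit chosen after the values were seen, for 5 of the 13 (38.5%) and for 8.08% of all genes. The 5 were genes 778999 (-0.87), 821479 (-0.85), 762575 (-0.66), 803877 (-0.54) and 810634 (-0.52). The median over the 12 aspen-only genes was 0.10. The gaps of genes 778999 and 810634 were 2.49 and 2.67 without that library. The rule used the pine means, so nothing is read from the difference between these genes and all genes. What set library c apart was not tested.

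The count of pine-only genes depended on how the media were scaled. The deposited medians of all genes ranged from 8.10 on maltose and 8.11 on pine to 9.21 on straw, and setting them equal raised pine by 0.53 and lowered aspen by 0.27. On that scale 50 genes were above the gap on pine alone, among them all 18, and with quantile normalisation 34 were, among them 16 of the 18. The straw-and-aspen genes numbered 7 on either scale, and 6 and 5 of the original 12 stayed in that set. Of all 61 genes, 48 met the rule on each of these scales.

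**Figure D4:**
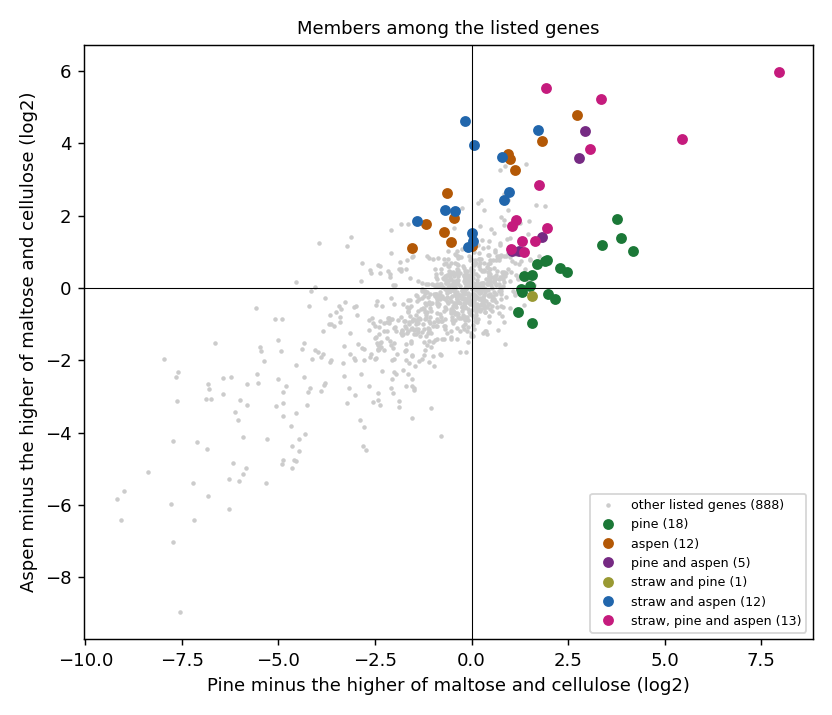
Level on pine and on aspen, each minus the higher of the maltose and cellulose levels (log2 units), for the 61 genes, coloured by the media above the gap, and for the other listed genes in grey. Most pine-only genes lie along the pine axis and most straw-and-aspen genes along the aspen axis, while the all-plant genes have at least 1.01 on both.

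The 12 aspen-only genes held 1.52% of the normalised reads of the listed genes on aspen. Gene 814337 had the largest gap, 2.23. Its aspen libraries were at 11.99, 12.25 and 12.24 and its pine libraries at 9.86, 9.87 and 10.07. It was at 8.39 ± 0.05 on straw (n = 2), and at 8.10 ± 0.34 on cellulose and 6.87 ± 0.24 on maltose (n = 3 each). Pine was thus above the other 3 media for gene 814337 and aspen higher again, at 39.2 times the maltose level.

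Gene 765582 had the same order of aspen and pine, with 13.20 on aspen, 11.15 ± 0.04 on pine (n = 3) and 10.45 ± 0.22 on straw (n = 2), against 8.41 ± 0.26 on cellulose and 8.30 ± 0.15 on maltose (n = 3 each). For gene 769045 the aspen libraries were at 11.21, 12.34 and 12.17, and straw, at 9.71 and 10.15, was next, above pine at 9.14 ± 0.20 (n = 3). Gene 802145 was at 10.68 ± 0.02 on aspen and 8.11 ± 0.07 on pine (n = 3 each), with 8.74 ± 0.09 on straw (n = 2). Gene 809658 was at 9.91 ± 0.04 on aspen, and its second highest medium was cellulose, at 7.98 ± 0.14, with 5.71 ± 0.18 on maltose (n = 3 each). Straw was second for 5 of the 12 genes, pine for 3, maltose for 2 and cellulose for 2. Gene 939658 had the lowest counts of the set, with 16, 12 and 35 reads on aspen and 3, 0 and 5 on pine, and it was the gene whose libraries overlapped.

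The 5 genes above the gap on both woods without straw included 2 of high level. Gene 767558 was at 14.88 on aspen, rank 8 of 949, and at 13.48 on pine. Its straw libraries were at 11.95 and 11.84, its cellulose libraries at 10.57, 10.76 and 10.28 and its maltose libraries at 8.94, 9.19 and 9.60, so the 5 media formed a ladder. Gene 336226 showed the same order, from 9.33 ± 0.11 on maltose (n = 3) through 9.98 on cellulose and 11.16 ± 0.20 on straw (n = 2) to 12.76 ± 0.08 on pine (n = 3) and 13.58 on aspen. Genes 611479, 829955 and 813077 were instead nearly level below the gap. Gene 611479 was at 9.20 ± 0.11 on pine and 8.77 ± 0.03 on aspen (n = 3 each) and between 6.97 and 7.43 on the other media. Genes 813077 and 829955 were at 7.08 ± 0.11 and 5.79 ± 0.51 on pine and at 7.06 ± 0.12 and 5.59 ± 0.16 on aspen (n = 3 each), close between the woods beside their spread.

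Cellulose and maltose, both below the gap by the rule, still differed for many of these genes. With limma, 27.7% of 801 genes tested were higher on cellulose than on maltose and 11.4% lower, at an adjusted p under 0.05 and a difference of at least 1. Of the 55 members tested, 18 were higher and 1 was lower. For limma calls, equal medians means that each library was centred on its median over the genes recovered in all libraries. With equal medians the members' counts were 6 higher and 8 lower, against 19.2% and 26.0% of all genes. With quantile normalisation they were 6 and 7, against 19.7% and 24.8%. Over all genes the share of calls that were higher went from 70.9% to 42.5% and 44.3%. Since the rule used these media, nothing is read from the members' counts.

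Pine and aspen were compared in the same way. Of all 822 genes tested, 7.06% were higher on pine and 27% were lower. The rule sets the direction for the members with 1 wood above the gap and the other below it, so their counts are not given. Over all genes the share of calls that were higher on pine was 20.7% as deposited, 53.9% with equal medians and 52.3% with quantile normalisation. Of the 13 all-plant genes, 9 could be tested, of which 1 was higher and 1 lower. The other 4, without recovered reads on a wood, included genes 775533, 777366 and 873101. By the deposited levels pine was higher than aspen by at least 1 for 2 of the 13, against 8.32% of all genes. It was lower by at least 1 for 3, against 26.4% of all genes. These counts of few genes were not examined with other scaling, and nothing is read from them.

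Straw, which could lie on either side of the gap, exceeded maltose by at least 1 for 32.2% of all genes and cellulose by at least 1 for 20.8%. For the 26 members with straw above the gap the rule makes both differences at least 1. Of the 35 members with straw below the gap, 13 had straw at least 1 above maltose and 8 at least 1 above cellulose. For 0 of the 35 it was at least 1 below either, against 13.5% of all genes for maltose and 11.1% for cellulose. The rule used straw here too, so nothing is read from these counts, and they moved with the scaling, a check added after the values were seen. With equal medians straw was at least 1 above maltose for 6 of the 35 and at least 1 below it for 12, against 19.2% and 44.5% of all genes. With quantile normalisation the counts were 6 and 6, against 23.4% and 32.8%. Against cellulose the counts above and below were 6 and 2 with equal medians, against 14.2% and 16.5% of all genes. With quantile normalisation they were 7 and 2, against 17.2% and 14.1%. Among all genes called by limma, 74.6% were higher on straw than on maltose as deposited, 39.6% with equal medians and 29.2% with quantile normalisation. Against cellulose the shares were 70.4%, 50.6% and 26.1%. For limma calls, quantile normalisation used the recovered libraries, which on the media with 3 libraries lack every value of 13 or more. The straw libraries keep theirs, so the quantile shares of 29.2% and 26.1% are not on a like footing and nothing is read from them.

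One cellulose library stood apart for several of these genes. Cellulose library c was lower than the mean of libraries a and b by at least 1 for 5 of the 57 members recovered there, 8.77%, against 3.13% of 832 genes. These were genes 677373 (-2.52), 777366 (-1.88), 227787 (-1.79), 237425 (-1.42) and 939658 (-1.31). The median over the members was -0.16, against -0.05 for all genes. A low library c lowers the cellulose mean that the rule used, so nothing is read from the difference between members and all genes. The reads were 605, 606 and 157 for gene 777366 and 341, 287 and 112 for gene 237425. Genes 677373, 227787 and 939658 had at most 39 reads in any cellulose library. The part of this library in the members' cellulose levels beyond the gaps given without it was not tested.

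**Figure D5:**
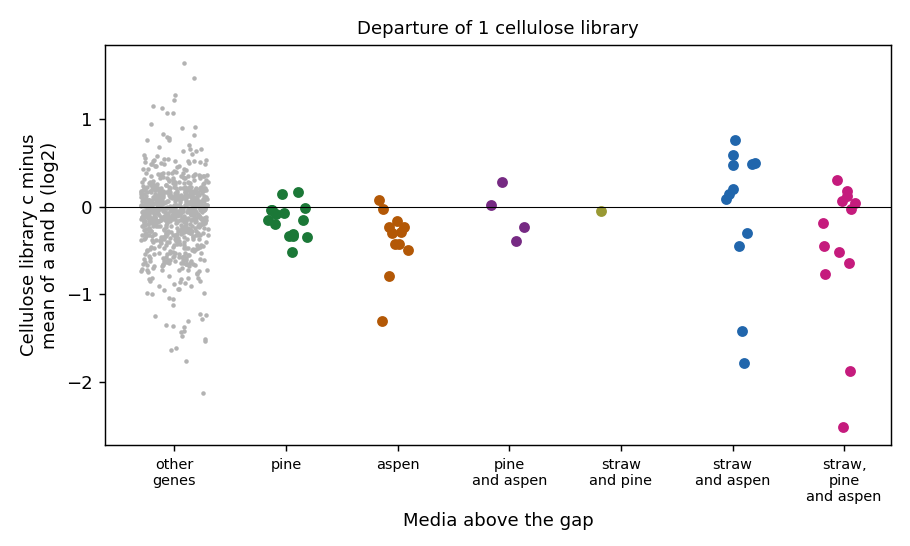
Difference of cellulose library c from the mean of libraries a and b (log2 units) for the recovered genes, with members coloured by the media above the gap and other genes in grey. Most members lie near 0, with a median of -0.16, and 5 lie at -1 or lower, down to -2.52 for gene 677373.

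The genes nearest the threshold had gaps that leave their membership to the choice of limit. Just inside were gene 394060 with 1.01, gene 785033 with 1.01 and gene 830842 with 1.02. Gene 394060 rested on 2 to 5 reads per library on maltose and cellulose and on 5 to 21 on the plant media, while gene 785033 was at 10.44 ± 0.06 on pine against 9.15 ± 0.15 on maltose (n = 3 each). Just outside were genes 867730, 63965 and 819632, with gaps of 0.996, 0.988 and 0.952. Gene 867730 was at 8.28 on pine and at most at 7.29 elsewhere, and gene 819632 was at 12.25 on aspen, 11.59 on straw and 11.05 on pine against 10.10 on cellulose.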

How the data were processed

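Mycelium on 5 media was measured by RNA-seq of poly A cDNA, read as paired ends on an Illumina HiSeq 2500, per the labels' protocols. TopHat2, HTSeq and DESeq 1.5 stand, without roles, in the submitters' processing notes. The genome build was not given in the sources used here. For 949 genes the authors deposited 1 normalised log2 read count per medium, per the file headers, from 0 to 17.27, with gene numbers of the JGI MycoCosm portal. The header does not say how these genes were picked.

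The rule was applied to the deposited log2 values. The 61 genes, the lists and the settings were chosen with earlier results of these data known. Whole reads per library were recovered by finding factors under which each value is a mean of log2(reads × factor + 1), accepted within 4e-14 below level 10 and 2e-13 from there on the natural log scale, a step taken after the values had been seen. Of 4745 values, 4323 gave exactly 1 set of reads, 81 several and 8 none, and 333 at 13 or more on the media with 3 libraries were not searched. Below level 9 all 2564 values gave 1 set, and an equal number of decoys, shifted by 1e-06, gave 0. From level 11 to 13, 601 of 682 gave 1 set and 69 decoys did too, so some reads there may be wrong. The recovery was also tested on read sets made up after pine and straw, from genes below level 11. All 749 and 691 values gave the right reads, which says nothing about higher levels. Libraries had no replicate numbers. One read was worth 0.878 to 1.20 normalised counts, and for the lowest levels this counting error limits precision.

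Background calls used limma 3.58.1 (R 4.3.3) with an intensity trend over all 14 libraries, Benjamini-Hochberg adjustment over all genes tested, an adjusted p under 0.05 and a difference of at least 1. Within each set the 5 genes with the largest gap are named, with the highest gene on straw, pine and aspen, and the 3 genes nearest to the threshold on either side. Genes 876569, 812417, 935131 and 939658, and those named for a library that stood apart, were chosen after their values were seen.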

Additional observations from a re-analysis of the deposited data

How the results depend on the processing

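With a gap threshold of 0.8 the rule gave 82 genes, with 20 aspen-only and 8 pine-and-aspen genes. At 1.5 it kept 35 (9 pine-only, 2 pine-and-aspen, 0 straw-and-pine, 7 all-plant) and at 2 it kept 17 (5 pine-only, 2 aspen-only, 0 pine-and-aspen, 0 straw-and-pine, 6 straw-and-aspen, 4 all-plant). With equal medians there were 86 genes, with 50 pine-only, 8 pine-and-aspen, 0 straw-and-pine and 7 straw-and-aspen genes. Quantile normalisation gave 78, with 34 pine-only, 0 straw-and-pine and 7 straw-and-aspen genes. In limma it gave 519 calls over all genes between straw and pine (340 as deposited) and 392 between straw and aspen (252). That limma run used recovered libraries, of which only those of straw hold values of 13 or more. Neither count can therefore be read as an effect of scaling. Accepting any gap gave 89 genes, with 2 straw-and-pine and 30 straw-and-aspen genes. A pseudocount of 5 gave 57 genes, 56 of them among the 61, with 3 pine-and-aspen genes, and a mean level of at least 5 gave 56. Leaving out 1 library at a time gave 57 to 65 genes, 16 to 22 of them pine-only, 9 to 16 aspen-only, 4 to 6 pine-and-aspen, 1 straw-and-pine, 11 to 13 straw-and-aspen and 11 to 15 all-plant, with a median gap of 1.59 to 1.65. Gaps of the 29 named genes were computed under equal medians, quantile normalisation, the pseudocount of 5 and the leave-one-out runs, 493 in all. Of these, 431 moved by less than the gene's own SD, 62 by more, and 0 changed sign. Most come from leave-one-out runs, where a gap can move only if the library's medium bounds it or comes to bound it. Many of the 431 thus could not move, and their number is no measure of stability. The cause of these shifts was not tested. No paired analysis was possible because the recovered libraries carry no replicate numbers. The edgeR alternative was not run. Genes at a few reads, such as 394060, 807835 and 939658, are limited by counting error, and values of 13 or more have no library values on the media with 3 libraries.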
